A study of Mus musculus with 16 samples.

Results

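The replication-dependent histone mRNAs are the transcripts of the H1, H2A, H2B, H3 and H4 genes that are expressed during DNA replication. They were taken from the mRNA-fraction libraries by gene symbol: H1f1 to H1f6 and all symbols starting with H2ac, H2bc, H3c or H4c, outside chromosome 8. The rule found 57 of the 15330 RefSeq mRNA references, from 55 genes: 6 H1, 14 H2A, 15 H2B, 9 H3 and 11 H4 genes. H2bc4 and H2bc22 have 2 references each, and all other genes have 1. Of the 55 genes, 50 lie on chromosome 13 and 5 on chromosome 3.

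The study measured cytosine methylation in RNA by bisulfite sequencing of J1 embryonic stem cells, a mouse line. Bisulfite turns an unmethylated cytosine into a base that is read as T, so the share of reads that still show C at a cytosine, its non-conversion, holds both methylation and failed conversion. The 2 groups are wild type (3 libraries) and Dnmt2-/- (3 libraries), all made from RNA longer than 200 nt that had been depleted of rRNA. Cells of both groups had been grown on feeder fibroblasts with LIF, and the feeders had been removed by letting them attach to dishes. The labels give no clone, passage or culture for a replicate, so p-values measure the spread between these libraries, which may be technical.

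Replication-dependent histone genes sit in clusters and mostly lack introns. Their mRNAs do not carry a poly(A) tail: they end just after a conserved stem-loop that binds the protein Slbp, which serves their processing, export, translation and decay. The mRNAs build up in S phase, when new DNA needs histones, and are degraded when replication stops. Dnmt2 is an RNA cytosine methyltransferase whose known substrates are tRNAs.

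The paralogs of a family code for nearly the same protein, so their mRNAs differ mostly in synonymous codon positions and in the untranslated regions. The first coding bases of 6 members are shown because they fixed where the start codon lies and because they show how alike the paralogs are. They come from the RefSeq promoter table of build GRCm38.p6, 5′ to 3′ on the strand of the gene, with the start codon in capitals.

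H2ac20, chr3:96220831-96220844, minus strand: ATGtctggccgtgg

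H2ac11, chr13:22042900-22042927, minus strand: ATGtctggacgcggcaaacagggcggca

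H2ac13, chr13:21716422-21716461, plus strand: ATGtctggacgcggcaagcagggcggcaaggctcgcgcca

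H2bc8, chr13:23571433-23571449, plus strand: ATGcccgagcctgcgaa

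H3c3, chr13:23745472-23745497, minus strand: ATGgctcgtactaagcagaccgctcg

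H4c3, chr13:23698409-23698449, minus strand: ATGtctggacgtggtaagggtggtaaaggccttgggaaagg

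The histone mRNAs were deeply covered. Between 1.29% and 2.14% of the coverage summed over all mRNA cytosines fell on the 57 references. That sum was 37786723 to 143488903 per library, and it counts a read once at each cytosine it covers. Of 6406 histone cytosines listed in any library, 3551 (55.4%) had 10 or more reads in every library, against 15.0% of the cytosines of all mRNAs. Per listed cytosine, the references of highest coverage were H1f3, H1f1 and H1f2 (linker histones), H2ac4, H2ac15 and H2ac6, H2bc4 (the reference NM_001290380.1), H2bc3 and H2bc15, H3c6, H3c7 and H3c3, and H4c4, H4c8 and H4c6. Coverage here is the mean number of reads per listed cytosine, scaled between libraries with TMM factors.

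H1f3 had scaled coverages of 1188, 844 and 693 in wild type and 1144, 1042 and 809 in Dnmt2-/-. H4c4, the highest of the core histones, had 1081, 845 and 855 in wild type and 951, 861 and 730 in Dnmt2-/-. In both the groups overlapped. At the other end, H1f6 (the testis linker histone) had 2.20 to 7.59 and H2bc1 (the testis H2B) 2.00 to 6.93. H2bc21 and the second H2bc22 reference, NM_178202.2, were below a mean of 1 and were not tested.

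No histone reference passed the test between the genotypes. Of the 55 references tested, 40 were higher and 15 lower in Dnmt2-/-, and none passed an adjusted p of 0.05 in limma, as none of the 11240 transcripts did (0.0%, with 775 at an unadjusted p under 0.05). The median log2 difference of the members was 0.17, against 0.03 over all transcripts, of which 55.2% were higher. The lowest adjusted p of a member was 0.441, for H2ac23, which was also the only member with an unadjusted p under 0.05. H2ac23, a core histone H2A gene, had coverages of 112, 124 and 154 in wild type and 92.7, 89.2 and 97.0 in Dnmt2-/-, a log2 difference of -0.47 ± 0.14 (SE, n = 3 and 3, limma, adjusted p = 0.441). Its groups do not overlap, and the same held for H1f1 (1203, 968 and 904 against 898, 899 and 758) and H1f4 (224, 193 and 218 against 185, 177 and 174): 3 of 55 members (groups do not overlap in 11.9% of all transcripts).

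Counted by family, all 9 H3 references were higher in Dnmt2-/- (median log2 difference 0.32), as were 12 of 15 H2B (0.34), 9 of 11 H4 (0.23) and 9 of 14 H2A (0.10) and 1 of 6 H1 (-0.19), with no test of the difference between families. With 1 library left out the median ranged from -0.25 to -0.06 in H1, -0.10 to 0.18 in H2A, 0.09 to 0.50 in H2B, 0.02 to 0.58 in H3 and 0.04 to 0.48 in H4. The H2A median turned without the second wild-type library (-0.0068) and without the first Dnmt2-/- one (-0.10), and the latter also gave the lowest H2B, H3 and H4 medians. The H3 count rested on single libraries too: without the third wild-type library 5 of 9 H3 references were higher, and without the first Dnmt2-/- library 6 of 9 were. The median of all members was 0.02 without the third wild-type library and -0.04 without the first Dnmt2-/- library, where 24 of 55 were higher. The plot of coverage by library shows how wide the overlap is.

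**Figure D1:**
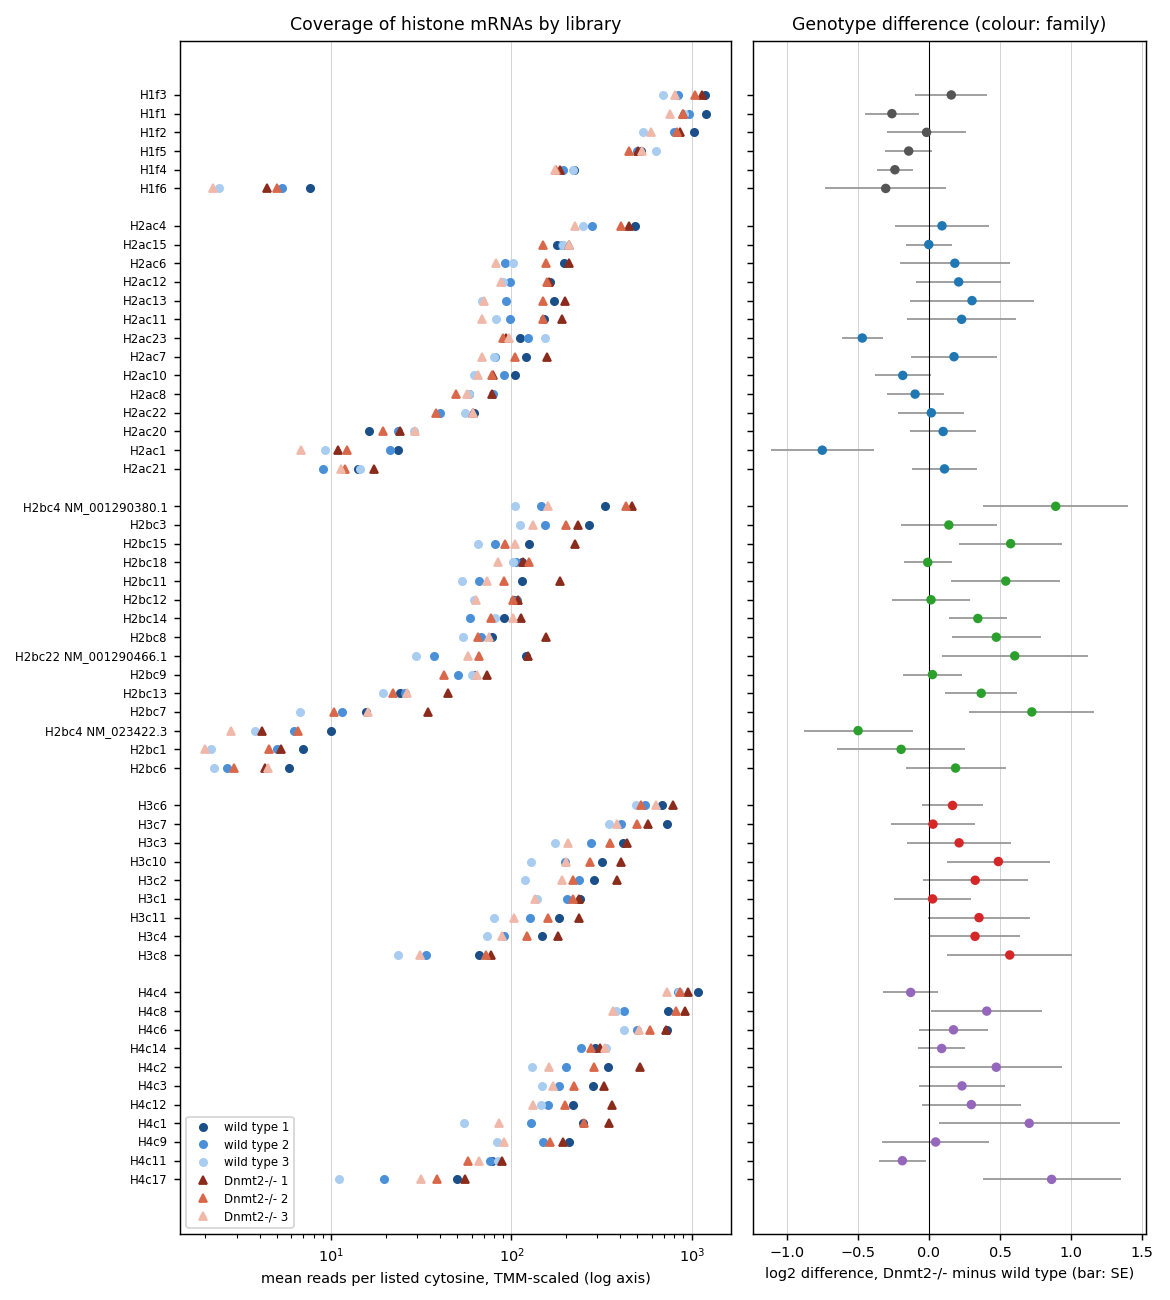
Scaled coverage of the 55 tested histone references in each library (left, log axis; circles are wild type and triangles Dnmt2-/-) and the log2 difference of each with its SE from limma (right, coloured by family). H1f3, H1f1 and H1f2 lie between 537 and 1203 reads per cytosine, and H1f6 and H2bc1 between 2.00 and 7.59. On the right every member's difference lies between -0.75 and 0.89.

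The 5 members with the largest differences were H2bc4, H4c17, H2ac1, H2bc7 and H4c1. H2bc4 (NM_001290380.1) had coverages of 332, 145 and 105 in wild type and 467, 434 and 160 in Dnmt2-/- (log2 difference 0.89 ± 0.51, SE, limma, adjusted p = 0.873). H4c17 had 49.9, 19.5 and 11 against 55.5, 38.5 and 31.5 (0.86 ± 0.48, adjusted p = 0.865). In both the first wild-type library lay within the Dnmt2-/- range. H2ac1, the testis H2A paired head to head with H2bc1, had 23.3, 21.2 and 9.24 against 11, 12.2 and 6.76 (-0.75 ± 0.36, adjusted p = 0.797). H2bc7 had a difference of 0.72 ± 0.44 and H4c1 of 0.70 ± 0.64 (limma, adjusted p = 0.887 and 0.967). With 1 library left out these differences kept their direction but ranged from 0.53 to 1.37 for H2bc4, 0.37 to 1.44 for H4c17, -1.17 to -0.51 for H2ac1, 0.26 to 1.10 for H2bc7 and 0.13 to 1.29 for H4c1.

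The libraries of 1 genotype stood in a repeated order. Within wild type the first library was the highest of the 3 in 45 of 55 members and the third the lowest in 41 (74.5%, against 41.5% of all transcripts). Within Dnmt2-/- the first library was the highest in 43 of 55 and the third the lowest in 39 (70.9%, against 38.7%). H4c1 is the clearest example, with coverages of 249, 128 and 54.3 in wild type and 347, 254 and 85.4 in Dnmt2-/-. H4c14, on chromosome 3, did not follow this order, with 291, 243 and 334 in wild type and 312, 277 and 330 in Dnmt2-/-. Slbp, whose protein binds the stem-loop, had 25.9, 11 and 6.51 in wild type and 20.7, 20.3 and 9.47 in Dnmt2-/-, so the third library of each genotype was the lowest for this reference. Its other tested reference had 0.55, 1.47 and 0 against 1.49, 3.29 and 1.52. In its list, for histone mRNA processing, export, translation and decay, the third library was the lowest in 7 of 16 in wild type (43.8%) and 6 of 16 in Dnmt2-/- (37.5%), near the shares of all transcripts. The DNA replication genes did not share this order: the third wild-type library was the lowest in 0 of their 16 tested references and the second in 15, and Pcna, the sliding clamp, had 349, 280 and 368 in wild type. In Dnmt2-/- the third library was the lowest in 8 of these 16. In the list for the histone locus body and transcription it was the lowest in 9 of 13 in wild type (69.2%) and 6 of 13 in Dnmt2-/- (46.2%). Among the chaperones and acetylases of new histones it was the lowest in 2 of 15 and 4 of 15, and among replacement histones in 3 of 10 and 5 of 10. The third wild-type library had the lowest depth of the 6 and the highest summed coverage of the feeder fibroblast markers, 91.7 against 35.5 to 50.7 in the other 5. Of 8 feeder markers tested 0 were higher in Dnmt2-/-, and Dcn was at 0 in every library but the third wild-type one. The summed coverage of embryonic stem cell markers was 1647 to 2003 in wild type and 1921 to 2684 in Dnmt2-/-. Most of each sum was Dppa5a, with 1363, 1041 and 1085 against 1966, 1913 and 1401. Of 9 references of these markers tested 7 were higher in Dnmt2-/-. The third library was the lowest in 4 of these 9 in wild type and in 9 of 9 in Dnmt2-/-. Sox2 and the Pou5f1 reference of highest coverage were lower (log2 difference -0.09 and -0.24). The part of these in the result was not tested, and in bulk RNA fewer cells in S phase and less histone mRNA per cell cannot be told apart.

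Among the genes that serve histone supply none passed either. In the list for histone mRNA processing, export, translation and decay, 13 of 16 tested references were higher in Dnmt2-/- and none passed the test (median log2 difference 0.11). Ptbp1 (57.2 mean scaled coverage, log2 difference 0.11 ± 0.18) and Ncbp1, the large cap-binding subunit (34.9, 0.06 ± 0.15), had the highest coverage there. In the list for the histone locus body and transcription 6 of 13 were higher (median -0.02), led by Ccne1, the S-phase cyclin E1, with 112, 85.0 and 110 in wild type and 133, 118 and 120 in Dnmt2-/- (0.28 ± 0.14, limma, adjusted p = 0.836). Its groups do not overlap, which held for 1 of 13 references in this list and for 11.9% of all transcripts. The second in coverage there was the transcription factor Yy1 (-0.12 ± 0.14).

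Among the chaperones and acetylases of new histones 5 of 15 were higher (median -0.15), with Hat1 at 0.08 ± 0.16 and the H3-H4 chaperone Nasp at -0.18 ± 0.20. In the DNA replication list 12 of 16 were higher (median 0.08). Pcna had a log2 difference of -0.23 ± 0.15 and the helicase subunit Mcm7 0.21 ± 0.17. Of the replacement histones and others whose making is not tied to replication alone, 4 of 10 were higher (median -0.04). H2az1 had a mean scaled coverage of 697 (-0.16 ± 0.22) and H2ax of 341 (-0.05 ± 0.14). Over the 5 lists the lowest adjusted p in limma was 0.524.

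Pooled over their cytosines, the histone mRNAs lay close to all mRNAs. Non-conversion of the histone members was 1.70%, 1.54% and 1.73% in wild type (1.66% ± 0.10, SD, n = 3) and 1.81%, 1.84% and 1.55% in Dnmt2-/- (1.73% ± 0.16). All mRNAs had 1.58% ± 0.086 and 1.72% ± 0.21. The ranges of the genotypes overlap, and the first and second Dnmt2-/- libraries are the highest in both sets. Among the families H3 was the lowest of the 5 in each of the 6 libraries, with 1.49% ± 0.092 in wild type and 1.54% ± 0.12 in Dnmt2-/-. H1 had 1.71% ± 0.11 and 1.86% ± 0.25 and H2A 1.79% ± 0.20 and 1.80% ± 0.018, and one of these was the highest in each library. These differences between families are a description of the same 6 libraries and had no test.

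**Figure D2:**
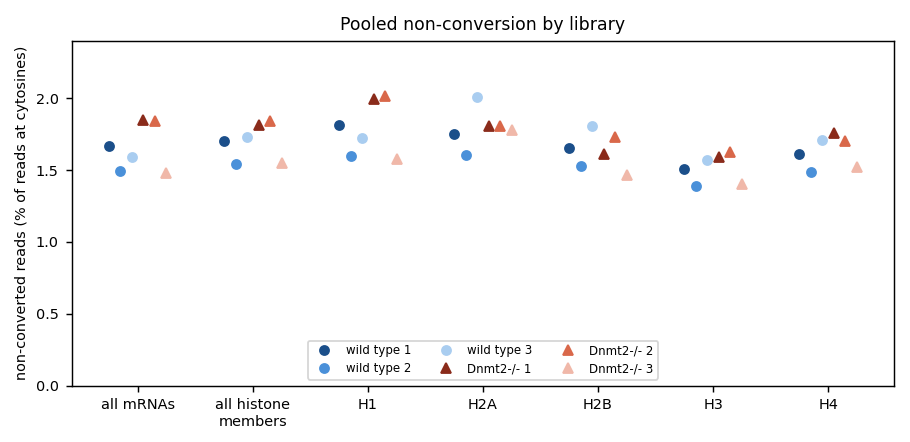
Pooled share of non-converted reads at listed cytosines, in percent, for all mRNAs, all histone members and each family. Each point is a library (circles wild type, triangles Dnmt2-/-): all lie between 1.39% and 2.02%, and H3 is the lowest family in each library.

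Single cytosines at high levels were rare. Of the 3551 cytosines with 10 or more reads in every library, 3 had a mean non-conversion of 10% or more (0.0845%, against 0.0615% over all mRNAs) and 40 of 5% or more (1.13%, against 1.10%). In wild type 3 of 3558 histone cytosines were called methylated, where 0.0212% of all mRNA cytosines were, and in Dnmt2-/- 3 of 4276 (0.0283% of all). They were the same 3 cytosines: positions 165 and 171 of H2ac20 and position 421 of H3c6, counted from the 5′ end of the reference. A call needed 10 reads and 10% non-conversion in each library of a genotype and an adjusted p under 0.05 from exact binomial tests against that library's background.

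H2ac20 position 171 was non-converted in 13 of 15, 39 of 43 and 14 of 16 reads in wild type and in 20 of 23, 20 of 23 and 47 of 54 reads in Dnmt2-/-. That is 88.3% ± 2.13 (SD, n = 3) and 87.0% ± 0.046 (n = 3), and the Dnmt2-/- values lie within the wild-type range (edgeR quasi-likelihood test, adjusted p = 0.9994). Position 171 is base 135 from the A of the start codon, the third base of codon 45. Position 165, the third base of codon 43, stood at 14.3%, 10.0% and 12.5% in wild type and 19%, 13% and 16.7% in Dnmt2-/-, from 14 to 48 reads. The groups overlap there too (12.3% ± 2.15 and 16.3% ± 3.02, adjusted p = 0.9994).

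H3c6 position 421 was non-converted in all 79 wild-type reads. In Dnmt2-/- it was non-converted in 38 of 42, 26 of 26 and 47 of 50 reads, or 94.8% ± 4.82 (SD, n = 3). It was the only one of the 40 histone cytosines tested with an unadjusted p under 0.05 (edgeR, adjusted p = 0.9994). None of the 40 passed, as none of the 8193 mRNA cytosines did (0.0%, with 202 at an unadjusted p under 0.05). Over the 40, 12 were higher (30.0%) and 28 lower in Dnmt2-/-, with a median difference of -1.35 percentage points. Over all cytosines tested 47.0% were higher, with a median of -0.32. Sites entered on the plain mean of the library percentages, so a high value on few reads in 1 library could bring one in. H4c1 position 350 stood at 24% of 25 reads in the third wild-type library and at 1.20% to 3.42% in the others. The balance of higher and lower sites cannot be told apart from this and was not tested.

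Both highest called cytosines stood where reads peaked locally. Around H2ac20 position 171 the 6 libraries together had 10 reads at 57 nt before the site, 174 at the site, 176 at 11 nt after it and 6 at 55 nt after it. Apart from position 165, the neighbours within 30 nt stood at 1.17% to 8.33%. Around H3c6 position 421 the reads rose from 48 at 57 nt before the site to 197 at the site and fell to 126 only 3 nt after it and to 23 at 45 nt. The neighbours within 30 nt stood at 0% to 4.35%. Over all of H3c6 the cytosines had 23 to 25201 reads, with a median of 268.5. How reads that match several paralogs were placed is not given in the sources used here, and its part in these sites was not tested.

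**Figure D3:**
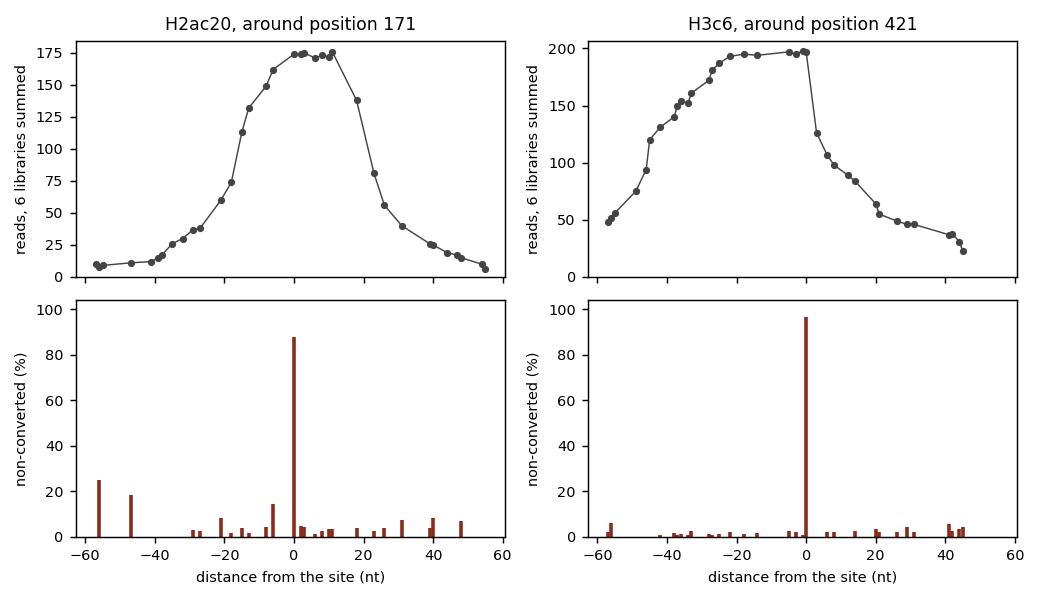
Reads summed over the 6 libraries (top) and non-converted reads in percent (bottom) at each listed cytosine within 60 nt of H2ac20 position 171 (left) and H3c6 position 421 (right). The reads peak at or within 11 nt of each site, at 176 and 198, while the only bar above 30% is the site itself.

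A few more cytosines were high at fewer reads than a call needs. H2bc18 position 172, the third base of codon 40, was non-converted in 51 of 53 reads: 9 of 9, 13 of 15 and 3 of 3 in wild type and 8 of 8, 10 of 10 and 8 of 8 in Dnmt2-/-. Its 15 neighbours within 30 nt all had fewer reads, at a pooled 1.23%. H2bc1 position 390 had 26 of 38 reads non-converted: 6 of 10 and 3 of 9 in the first and second wild-type libraries and 9 of 11 and 8 of 8 in the first and second Dnmt2-/- ones. The groups do not overlap there, and the site had too few reads to enter the test. H2bc13 position 198, the third base of codon 66, had 11 of 12, all in the first and second Dnmt2-/- libraries, and H4c9 position 207, the third base of codon 56, 6 of 12 in 2 libraries. These are single cytosines picked for their level, and their reads may be copies of fewer molecules.

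Codon position was not used to pick these sites, but it was looked at after their values had been seen. In the first 300 coding bases of the placed H2A, H2B, H3 and H4 references, 1504 of 3113 listed cytosines (48.3%) lie at the third base of a codon. All 4 cytosines there with a mean non-conversion of 40% or more and 10 or more reads lie at the third base, as do 12 of the 15 (80%) with 10% or more and 30 or more reads. The 15 include H2ac20 positions 150, 165 and 171, which lie in 1 transcript. H3c6 position 421 lies outside these bases, at base 421 from the start codon, and is left out of the count. Pooled over all cytosines, the third base had 1.68%, the second base 1.59% and the first base 1.66%. The third base is where paralogs differ most, and what this has to do with the levels was not tested.

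To ask whether a site recurs in paralogs, the references of a family were laid on a shared coordinate by the pattern of their cytosines. This placed 54 of 57: 4 of 6 H1, 14 of 14 H2A, 16 of 17 H2B, 9 of 9 H3 and 11 of 11 H4 references, leaving out H1f1, H1f6 and H2bc22 NM_178202.2. The start codons found in the promoter table fell on the same coordinate in 5 of 5 H2A, 5 of 5 H3 and 3 of 3 H4 references. In H2B the codon of H2bc8 was used and that of H2bc1 lay 1 codon away.

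None of the called cytosines was called in a paralog. At the place of H3c6 position 421, 6 of 8 paralogs were covered on both sides by 630 to 5821 reads and list no cytosine, 1 was not covered, and H3c11 has a cytosine there, with 53 of 3392 reads non-converted (1.56%). At H2ac20 position 171, H2ac15 had 75 of 3680 reads non-converted (2.04%) and H2ac8 9 of 294 (3.06%). H2ac1 lists no cytosine there, and the other 10 paralogs had under 10 reads or none. At position 165 the same H2ac15 and H2ac8 had 1.18% and 1.00%. At H2bc18 position 172, 7 paralogs were covered on both sides by 10 to 770 reads, and none lists a cytosine.

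**Figure D4:**
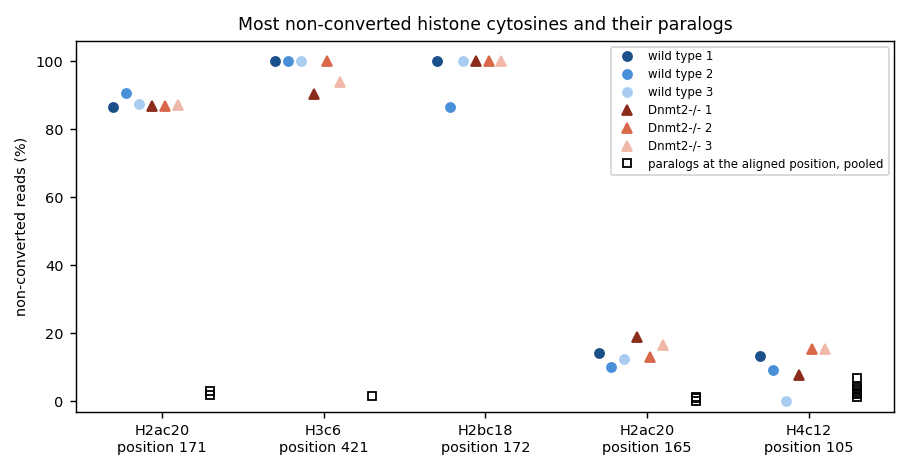
Non-conversion, in percent, at 5 histone cytosines in each library (circles wild type, triangles Dnmt2-/-), beside the pooled value of each paralog that has 10 or more reads at the aligned cytosine (open squares, none for H2bc18). The first 3 sites lie at 86.7% or more in every library while no paralog exceeds 6.77%.

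With 10% as the mark, 55 cytosines in 31 members were elevated, most of them on few reads. None recurred at the same transcript position, and 1 pair recurred on the shared coordinate: H2bc14 position 377 (2 of 30 reads) and H2bc21 position 368 (1 of 10 reads). With a mark of 5%, 283 cytosines were elevated and 47 shared coordinates recurred (18 by transcript position), again mostly on few reads. The mark was set on the mean of the library percentages, so a site with few reads in 1 library can pass it with a lower pooled share, as H2bc14 did with 1 of 3 reads in the first wild-type library. Recurrences with more reads lay in H2A, H2B and H4, of which these are examples. In H2B, H2bc15 position 429 had 32 of 978 reads (3.27% pooled, mean 5.60%) and H2bc8 position 462 had 10 of 366 (2.73% pooled, mean 9.45%). At the same coordinate H2bc12, H2bc7 and H2bc13 stood at a pooled 1.04%, 1.05% and 1.16%, and H2bc9 at 0 of 18 reads. In H2A, H2ac12 position 160, H2ac7 position 159 and H2ac6 position 111, all base 69 from the start codon, had 7 of 109, 6 of 133 and 6 of 83 reads. There H2ac11 had 0 of 96 reads, and H2ac4, H2ac15, H2ac8, H2ac23 and H2ac13 stood at a pooled 1.77%, 2.01%, 2.03%, 3.14% and 4.26%. In H4, at base 57 from the start codon H4c12 stood at 22 of 196 reads (11.2%) and H4c4 at 91 of 1345 (6.77%), while H4c1, H4c9, H4c8, H4c6, H4c3 and H4c17 stood at 4.20%, 3.67%, 2.93%, 2.46%, 2.06% and 1.18%. At base 42 H4c8 had 154 of 2893 (5.32%), the only member with a pooled 5% or more there, and 5 paralogs had 2.46% to 3.90%. Bases 362 and 363 lie past bases 202 to 309, the stretch over which these H4 references were placed. Cytosines that share a coordinate there need not be the same cytosine of the 3′ end. At base 362 H4c8 position 433 had 453 of 5974 reads (7.58%) and H4c1 position 454 had 138 of 1786 (7.73%). In the 3′ spacing described below H4c8 position 433 is the seventh cytosine, and in H4c1 the seventh is position 453, the base before. At base 363 H4c8 position 434 had 90 of 1307 (6.89%) and H4c4 position 363 had 109 of 2128 (5.12%), while H4c2 and H4c3 had 0.905% and 0.978%. The H4c3 value is at position 372. Its next base, position 373, stood at 5.21% to 8.91% in wild type and 5.14% to 7.80% in Dnmt2-/-. So a low value at base 363 does not show that a paralog lacks a raised cytosine at its 3′ end.

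The last cytosines of the mRNA stood higher in many members. In 40 of 57 references, from 40 genes, the listed cytosines at the 3′ end lie at 0, 2, 7, 12, 13, 15, 16 and 17 bases from the first, the spacing of the cytosines in the textbook histone stem-loop and the bases that follow it. The first, the second and the fourth to the sixth had to be listed, with no listed cytosine more than 6 bases after the sixth. The spacing was found in 6 H1, 7 H2A, 12 H2B, 8 H3 and 7 H4 references, and in 78 of 15273 other references (0.511%). It was chosen after the values at these ends had been seen.

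Along this spacing non-conversion was highest at its end. Pooled over the members with 10 or more reads, it was 1.72%, 1.15% and 1.27% at the first 3 cytosines, 2.41% at the fourth, 1.56% and 1.32% at the fifth and the sixth, and 4.84% and 4.97% at the seventh and the eighth. The seventh stood at 5.10%, 4.0% and 6.06% in wild type and 5.24%, 4.57% and 4.41% in Dnmt2-/-. The sixth, the base before it, stood at 1.46%, 1.41% and 1.54% and at 1.30%, 1.26% and 1.05%. So the seventh was above the sixth in each of the 6 libraries, and the genotypes overlap at the seventh (5.05% ± 1.03 and 4.74% ± 0.44, SD, n = 3). At the sixth they do not overlap (1.47% ± 0.068 and 1.20% ± 0.14), a difference that was not tested. It was the only cytosine of the spacing where they were apart. By family, over members with 100 or more reads, they were apart at the sixth in H4 only. H4 had 2.20%, 2.24% and 2.91% in wild type and 1.83%, 1.53% and 1.66% in Dnmt2-/-. In H1, H2A, H2B and H3 the genotypes overlapped there.

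All families held the difference. In all 25 members with 100 or more reads at both, the seventh cytosine (2.65% to 7.58%, median 4.29%) was above the sixth (0.552% to 2.61%, median 1.11%). H1f3 had 430 of 10253 reads at its position 774 (4.19%) after 100 of 11693 at position 773 (0.855%). H4c8 had 453 of 5974 reads at position 433 (7.58%) after 216 of 8281 (2.61%). With 100 or more reads all 6 H4 members stood at 5.07% to 7.58%, and 1 of the 19 others (H2ac4, with 5.02%) at 5% or more. By family the seventh cytosine had 4.17% in H1, 4.27% in H2A, 3.84% in H2B, 4.31% in H3 and 6.21% in H4.

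Among the 40 histone cytosines that entered the genotype test, 9 belong to this spacing, 7 of them the seventh cytosine. The reads drop 1 base later: they changed little from the sixth to the seventh cytosine (median 1940 and 1614 reads in the 25 members), where the level rises, and fell at the eighth. In the 13 members with 100 or more reads at both, the median was 2739 reads at the seventh cytosine and 401 at the eighth. In other mRNAs the last listed cytosine, where it had 100 or more reads (86 references), stood at a pooled 2.32%, against 1.64% over all their cytosines at that depth. In the histone mRNAs the last listed cytosine stood at 4.28% (27 references). The part of the reads' ends in these levels was not tested.

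**Figure D5:**
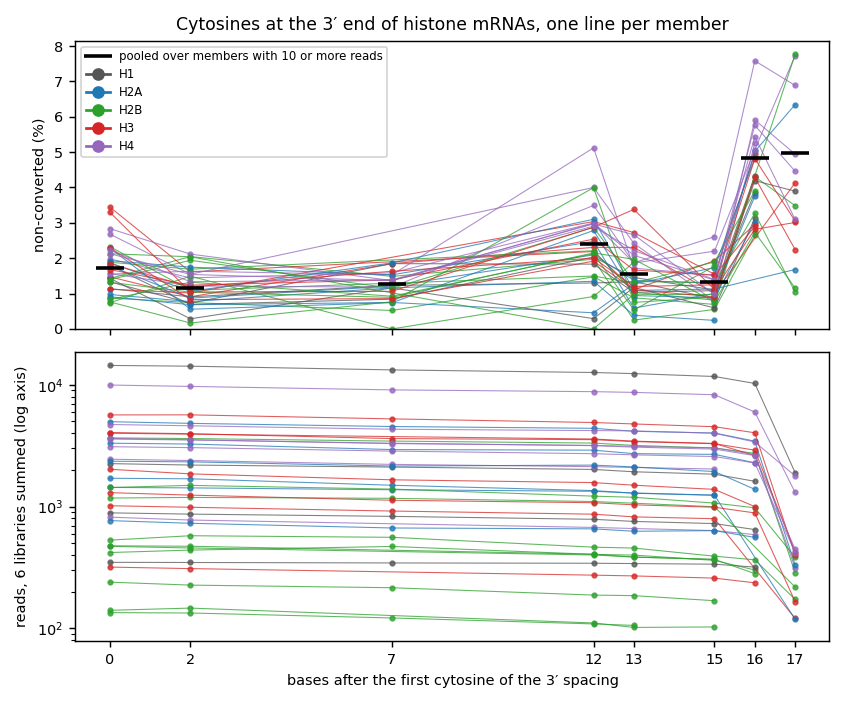
Non-conversion in percent (top) and summed reads on a log axis (bottom) at the cytosines of the 3′ spacing, by distance in bases from its first cytosine. Each line is a member with 100 or more reads at the cytosines drawn, coloured by family, and black bars are pooled values: they stay at or under 2.41% up to base 15 and stand at 4.84% and 4.97% at bases 16 and 17, and the reads fall at base 17.

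The promoters of the members share short motifs in different measure by family, as a description of the sequence around these genes. In the 250 bases before the start, 44 of 51 promoter entries (86.3%) hold CCAAT, against 33.8% of all 32851 entries. TATAAA is held by 27 (52.9%), against 12.4%. Both were searched on either strand. CCAAT is the motif of the NF-Y factor. It was found in 41 of 41 entries of H1, H2A, H2B and H3 genes and in 3 of 10 of H4 genes. The octamer ATTTGCAT, the motif of POU factors such as Oct1, was in 7 of 14 H2B and 6 of 14 H2A entries and in none of the others (1.60% of all). H2A and H2B entries are not all separate stretches of DNA. The 120 bases before the start of H2ac12 and of H2bc12, on opposite strands, overlap, and only those of H2bc12 hold the octamer. The 120 bases before the start of 4 members of high coverage are shown with these motifs in capitals, 5′ to 3′ on the strand of the gene, from RefSeq, build GRCm38.p6.

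H1f3, chr13:23554912-23555031, plus strand: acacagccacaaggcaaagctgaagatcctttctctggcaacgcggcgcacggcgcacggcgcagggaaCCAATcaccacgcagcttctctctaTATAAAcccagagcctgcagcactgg

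H2bc3, chr13:23746614-23746733, plus strand: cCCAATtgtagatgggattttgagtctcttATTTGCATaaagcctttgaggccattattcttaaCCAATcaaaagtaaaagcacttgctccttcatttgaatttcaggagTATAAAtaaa

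H3c3, chr13:23745522-23745641, minus strand: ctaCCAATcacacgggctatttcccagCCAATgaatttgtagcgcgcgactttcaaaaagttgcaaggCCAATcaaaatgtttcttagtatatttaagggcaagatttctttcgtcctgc

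H4c4, chr13:23581448-23581567, plus strand: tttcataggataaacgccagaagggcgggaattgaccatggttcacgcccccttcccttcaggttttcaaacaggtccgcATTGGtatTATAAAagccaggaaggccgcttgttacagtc

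H2bc3 holds all 3 motifs and H1f3 both of the others. H3c3 has CCAAT and no TATAAA in this window, and H4c4 is 1 of the 3 H4 genes with CCAAT, here on the other strand. None of these 4 passed the coverage test between the genotypes (limma, adjusted p from 0.985 to 0.993).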

How the data were processed

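The authors deposited, for each library, a table of cytosines with the coverage as a count of reads and the share of non-converted reads as a fraction. BSMAP and the genome build mm9 are named in the submitters' processing notes, without versions. How reads matching several places were handled is not given in the sources used here. No deposited coverage count is below 3. Non-converted counts were recovered as coverage times fraction and came out whole within 0.01 reads. The 6 mRNA-fraction libraries were used, with 3 per genotype. Their coverage summed over listed cytosines was 37786723 to 143488903, where a read counts once at each cytosine it covers. Intervals of reads cover counting error only.

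Tested sites had at least 10 reads in all 6 libraries and averaged 5% non-conversion or above. They were fitted with edgeR 4.0.16 (quasi-likelihood test on non-converted and converted counts, a term per library and an interaction with genotype). Coverage was tested with limma 3.58.1 with trend on log2(TMM-scaled mean coverage per listed cytosine + 0.5), for transcripts with a mean of 1 or more. Adjusted p-values are Benjamini-Hochberg over all features of a fit. Calls in a genotype used one-sided exact binomial tests per library, combined by Fisher's method. An exact permutation test of 3 against 3 cannot go below 0.1.

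Paralogs were to be placed by fitting cytosines to codons of a protein table, which was not used here. Instead references were placed where at least 40% of cytosines coincided, and start codons were read as the first ATG of the promoter table. Gene symbols came from the RefSeq table, which matched 15239 of 15330 references, and 15 of the 57 members matched in another version. The members and gene lists were chosen with earlier results of these data known. Named were the 3 references of highest coverage per family, the 5 largest coverage differences, all called and recurrent sites, and the 2 genes of highest coverage per list. H1f1, H1f4, H1f6, H2bc1, H4c14, H2ac23, Slbp, Dcn, Dppa5a, Pou5f1 and Sox2 were added after values were seen. So were the examples of recurrence at 5%, the sites below the call minimum, the codon bases and the 3′ spacing.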

Additional observations from a re-analysis of the deposited data

How the results depend on the processing

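Of the coverage differences of 20 named members, 11 kept their direction in all 12 alternatives each, and 9 turned in at least 1. With only cytosines listed in all 6 libraries H1f2 stood at 0.10 and H2ac15 at 0.11 on the log2 scale. Without both libraries numbered 3, an alternative chosen after seeing the data, H3c7 stood at -0.038. Leaving out 1 library gave ranges of -0.28 to 0.20 for H1f2, -0.029 to 0.37 for H1f3, -0.095 to 0.16 for H2ac15, -0.11 to 0.39 for H2ac4, -0.11 to 0.55 for H2ac6, -0.16 to 0.48 for H2bc3, -0.12 to 0.52 for H3c3, -0.19 to 0.35 for H3c7 and -0.0071 to 0.40 for H4c6. The median of the members ranged from -0.04 to 0.38. The cause was not tested.

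Over all transcripts 1 passed in limma with cytosines listed in all 6 libraries and 1 without the first Dnmt2-/- library (leave-one-out range 0 to 1). Over all mRNA cytosines 1 passed in edgeR without the third wild-type library, where more were tested (range 0 to 1), and 27 when reads were summed per genotype for Fisher's exact test, a test blind to library spread. No histone reference or cytosine passed in any of these. Calls in wild type fell to 0 at a minimum of 20 reads and were 2 to 3 with 1 library left out. None of the called cytosines could enter at 20 reads, as they had 11 to 16 in the third wild-type library. Calls in Dnmt2-/- were 5 at a minimum of 5 reads, adding H2bc1 position 153 and H2bc18 position 172, and 4 with any 1 library left out. Recurrent coordinates numbered 47 at 5% or more, 0 at 20% or more and 0 with 30 or more reads. With the replicate block 0 histone references and 0 cytosines passed. Same-numbered libraries' deviations correlated at 0.135, 0.0361 and 0.295, and the first wild-type library correlated best with the second Dnmt2-/- one (0.207), so the numbers were not taken as pairs.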

Other observations

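Histone genes next to the rule were covered too. H4f16, H2aw and H2bu2, whose symbols lie outside it, had mean scaled coverages of 160, 122 and 48.4 and a pooled non-conversion of 1.80%, 1.54% and 1.5%.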
